A study of Saccharomyces cerevisiae with 8 samples.

Results

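In STM1 R237K an arginine of the Stm1 protein is replaced by lysine at the position the name gives, and the comparison described here sets the yeast strain that received this version (A880STM1K) against the strain that received unaltered STM1 (A880STM1). The members are the 4 arrays carrying those strain names, 2 per strain, of 8 arrays in the series. The other 4 arrays hold BY4741, the wild type, and A880, which the labels give as BY4741 with POP2 deleted. Both transformed strains are labelled as made from A880, so by the labels both lack POP2, although its signal, given below, is not that of A880. All cultures were first grown in synthetic complete medium with 2% glucose to an optical density of 1, then washed and held for 12 hours in the same medium with 2% glycerol, and were harvested as whole cells at an optical density of 0.4 to 0.8. The 2 arrays of a strain came from separate cultures. The vector and promoter of STM1 and the number of transformants are not stated in the labels.

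Stm1 is an RNA-binding protein of the yeast ribosome, and it holds idle ribosomes together when nutrients run short. It contains arginines followed by glycines, a sequence context in which arginines are often methylated; a lysine keeps the positive charge of an arginine but is not a substrate for arginine methyltransferases. Pop2, also called Caf1, is a deadenylase of CCR4-NOT, which removes the poly(A) tails of messenger RNAs. Glycerol cannot be fermented, so yeast transferred to it relies on mitochondrial respiration and on gluconeogenesis, and genes repressed by glucose are switched on.

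RNA was measured on Affymetrix arrays that carry 10928 probe sets, and the deposited values are scaled probe set intensities, called signal here. Background was taken, array by array, as the 90th percentile of the probe sets designed for another yeast species, and was 6.81, 7.55, 8.40 and 7.65 signal units on the 4 arrays. Of 5498 probe sets assigned to a single S. cerevisiae gene, 5493 exceeded background on at least 2 of the 4 arrays and were tested. Paired signals below are given as replicate 1 and replicate 2. Differences are log2 of A880STM1K minus A880STM1 ± SE from limma, with n = 2 arrays per strain throughout, and a change is an adjusted p below 0.05 over all tested probe sets.

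The genes named in the labels were read first. STM1 (YLR150W) had signals of 9441 and 5027 in A880STM1 and 8697 and 8143 in A880STM1K, against 2043 and 2566 in BY4741 and 2960.3 and 3096 in A880. Every array of both transformed strains was therefore above every array of the other strains, and the transformed strains overlapped (log2 0.29 ± 0.45, adjusted p = 0.701). POP2 (YNR052C) had 181 and 286 in A880STM1 and 255 and 176 in A880STM1K, although both strains are labelled as lacking it. BY4741 gave 883 and 814 for POP2, and A880 gave 0.221 and 0.452, below background. The difference in POP2 between the transformed strains was log2 -0.10 ± 0.52 (adjusted p = 0.915). Thus POP2 goes against the labels of the 4 libraries compared here. A880STM1 and A880STM1K below mean the libraries labelled so, and every direction rests on those labels. Other genes, chosen after their values were seen, also separated A880 from the transformed strains. YCR102C, on the right arm of chromosome III, gave 0.456 and 0.851 in A880 but 576 and 247 in A880STM1 and 101 and 96.7 in A880STM1K, and REE1, on the left arm of chromosome X, gave 3.76 and 1.14 in A880 but 1580.1 and 2021 in A880STM1 and 1125 and 1821 in A880STM1K.

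Some strain marker genes differed between the transformed strains. URA3, a uracil synthesis gene, gave 4956 and 4315 in A880STM1 and 1850.2 and 1384 in A880STM1K (log2 -1.53 ± 0.39), against 3.32 and 1.14 in BY4741 and 5062 and 5537 in A880. CAN1, the arginine permease, gave 2258 and 2127 in A880STM1 and 675 and 584 in A880STM1K (log2 -1.80 ± 0.39), against 0.318 and 0.551 in BY4741, below background, and 920.4 and 775 in A880. BY4741 and A880 thus differed in URA3 and CAN1 as well as in POP2. LEU2, a leucine synthesis gene, was at 7704 and 3412 and at 9187 and 7640.4, with no call, and all 4 of these values exceeded the 529.8 and 542 of BY4741 and the 248 and 214 of A880. The calls of URA3 and CAN1 did not hold under every alternative, that of CAN1 being lost only with weights per strain. ADE2, a purine gene that also marks strains, gave 1724 and 1202 in A880STM1 and 3828 and 5462 in A880STM1K (log2 1.67 ± 0.39), and its call held. MET17, an enzyme of sulfur amino acid synthesis, gave 2013 and 1210.3 in A880STM1 and 4608 and 7264 in A880STM1K (log2 1.89 ± 0.39), a call lost only with weights per strain. Markers of cell type were checked because strains can differ in mating type. The summed signal of 7 genes specific to a cells was 675 and 761 in A880STM1 and 940.2 and 842 in A880STM1K, against 3069.6 and 3073 in BY4741 and 2942 and 3367 in A880, and none of the 7 was at background in either transformed strain. Of these, only BAR1, the protease that degrades alpha factor, was called, at 50.6 and 28.7 in A880STM1 and 129.9 and 87.2 in A880STM1K (log2 1.48 ± 0.58, adjusted p = 0.0472), and the call did not hold under every alternative. Among 4 genes specific to alpha cells the summed signal was 447 and 375 in A880STM1 and 856 and 911 in A880STM1K, against 721 and 642 in BY4741 and 440.0 and 484 in A880. The A880STM1 sums thus lay near those of A880, and the A880STM1K sums above every other array. Of these, MF(ALPHA)1, the alpha factor gene, was called higher at 25.5 and 10.8 in A880STM1 and 100.2 and 156 in A880STM1K, and MF(ALPHA)2 at 52.1 and 33.0 in A880STM1 and 132 and 182 in A880STM1K, and neither call held under every alternative. The 15 genes listed here as haploid-specific summed to 1551 and 2142 in A880STM1 and 2949.6 and 2151 in A880STM1K, against 7123 and 7297 in BY4741 and 8254 and 8085 in A880. Of these, STE18, at 975 to 1021 in BY4741 and A880, gave 24.0 and 17.7 in A880STM1 and 31.1 and 29.3 in A880STM1K. FUS3, at 528 to 728 in BY4741 and A880, gave 18.0 and 31.5 in A880STM1 and 38.9 and 38.8 in A880STM1K. MEK1, a list member without the fall of STE18 and FUS3 in A880STM1, was called lower in A880STM1K. It gave 92.2 and 169 in A880STM1 and 55.7 and 32.0 in A880STM1K. STE12 was called higher, at 137 and 137 in A880STM1 and 453 and 272 in A880STM1K. Neither call held. MEK1 in A880STM1 and STE12 in A880STM1K lay above BY4741 and A880. The part of these strain differences in the results below was not tested.

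Of the 5493 probe sets, 615 (11.2%) were higher and 574 (10.4%) were lower in A880STM1K than in A880STM1, 1189 (21.6%) in all, and 609 and 569 of these differed by at least 2-fold. Irrespective of any test, both A880STM1K arrays lay above both A880STM1 arrays for 32.4% of probe sets and below them for 27.2%. The median of all tested log2 differences was 0.10. Replicates of these strains were spread more widely than those of the others: 2 arrays of a strain differed by a median of 0.465 log2 units (sign ignored) for A880STM1 and 0.388 for A880STM1K, but by 0.144 for BY4741 and 0.118 for A880. With 2 residual degrees of freedom the fit gave each probe set the typical spread of its intensity, not its own, so the adjusted p-values here measure a difference against that typical spread. A test with each gene's own spread called 0 probe sets, and 933 had an unadjusted p below 0.05 in it. A call is said below to hold where it passed under each of 16 other settings that share spread between genes, among them other scalings, weights per strain and each array left out in turn. By that measure 131 probe sets were higher (2.38%) and 180 were lower (3.28%). Without the second A880STM1 array the calls fell to 533, without the first A880STM1 array to 728, and without the first A880STM1K array to 569.

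The difference within replicate 1 and that within replicate 2, which share no array, had the same sign for 3947 of 5493 probe sets (71.9%). Across genes, which are not independent replicates, they had a Pearson r of 0.743 (n = 5493). Their medians were 0.32 in replicate 1 and -0.10 in replicate 2. A gap of at least 1 log2 unit separated the replicate differences of 262 called probe sets. The plot of replicate differences shows gluconeogenic genes low and mitochondrial ribosomal genes high along the diagonal, while sulfate genes lie well above it.

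**Figure D1:**
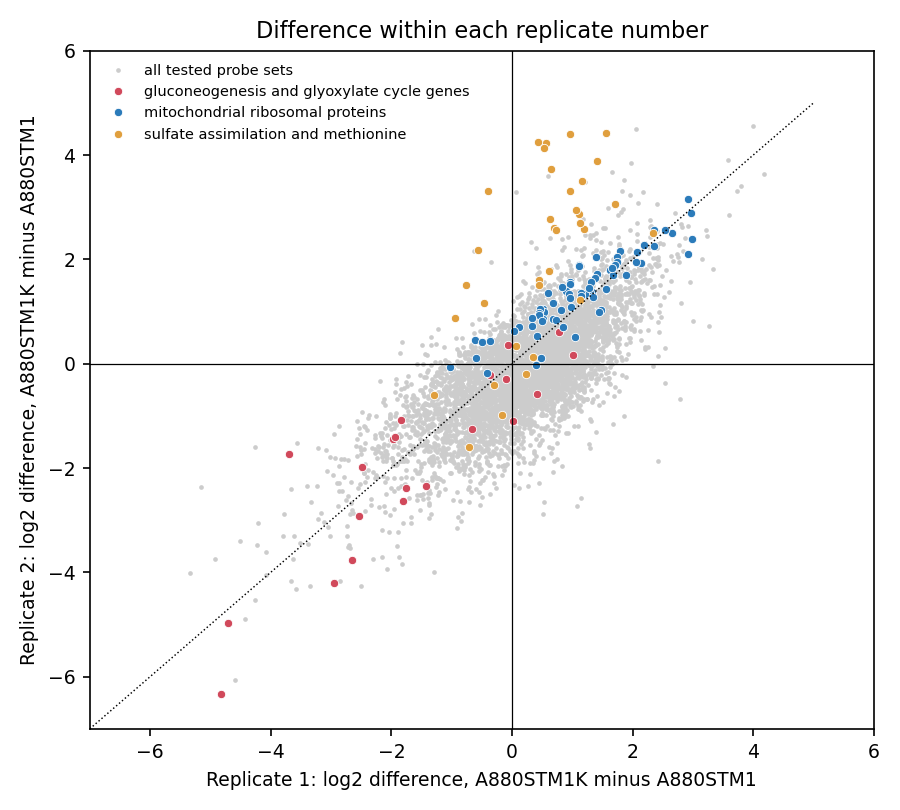
Each point is 1 probe set, with the log2 difference of A880STM1K minus A880STM1 in replicate 1 on the x axis and in replicate 2 on the y axis, and the dotted line marks equal differences. Grey points are all 5493 tested probe sets, coloured points are members of 3 gene lists, and the 2 probe sets of the ASP3 locus lie outside the axes.

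The signals of the other strains show which transformed strain stood apart. For 522 of the 615 higher probe sets (84.9%) both A880STM1K arrays lay outside the range of all 6 other arrays, and for 500 of the 574 lower ones (87.1%). Both A880STM1 arrays lay outside the range of the other 6 for 128 of the higher (20.8%) and 123 of the lower probe sets (21.4%). Over all tested probe sets, A880STM1K lay above the others for 18.6% and below for 21.1%, and A880STM1 for 4.61% and 9.23%. These counts use arrays that also made the calls and are a description.

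Genes of growth without glucose were among the largest falls. Each array measures a whole culture, so fewer cells carrying a transcript and less of it per cell cannot be told apart. In the list of gluconeogenesis and glyoxylate cycle genes with their carriers and activators, 13 of 21 genes were lower, 11 of them holding, and 0 were higher, with a median log2 difference of -1.70 (-1.81 in replicate 1, -1.44 in replicate 2). With any 1 of the 4 arrays left out, 12 or 13 were lower. SFC1, the mitochondrial carrier that exchanges succinate for fumarate, gave 2241 and 3702 in A880STM1 and 79.3 and 46.2 in A880STM1K, a 47.6-fold fall (log2 -5.57 ± 0.46, adjusted p = 7.75e-30). FBP1, fructose-1,6-bisphosphatase of gluconeogenesis, gave 1882 and 3837 in A880STM1 and 71.8 and 122 in A880STM1K (log2 -4.84 ± 0.44, adjusted p = 2.48e-24). ICL1, isocitrate lyase of the glyoxylate cycle, gave 2586 and 3990.5 in A880STM1 and 333 and 216 in A880STM1K (log2 -3.58 ± 0.39). In all of these the strains were separated by a wide gap, and both A880STM1K arrays lay below the BY4741 and A880 arrays too. PCK1, phosphoenolpyruvate carboxykinase, gave 3349 and 4359.9 in A880STM1 and 992 and 838 in A880STM1K, a 4.19-fold fall. MLS1, malate synthase, gave 2820.2 and 3420.0 in A880STM1 and 807 and 553 in A880STM1K, a 4.65-fold fall.

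Transcription activators of these genes, CAT8 and SIP4, fell too. CAT8 gave 1482 and 2866 in A880STM1 and 254 and 377 in A880STM1K (log2 -2.73 ± 0.40, adjusted p = 1.17e-09), and SIP4, which encodes a second activator bound to the same promoter elements, gave 1288 and 1513 in A880STM1 and 206 and 111 in A880STM1K (log2 -3.21 ± 0.45). ADR1, an activator of alcohol and fatty acid use, was not called (log2 -0.54 ± 0.38), nor was SNF1, the kinase that relieves glucose repression (log2 0.70 ± 0.38). Uptake of acids changed too: ADY2, an acetate transporter, gave 7703 and 5107 in A880STM1 and 592 and 1536 in A880STM1K (log2 -2.72 ± 0.39), and JEN1, the lactate and pyruvate permease, gave 5827 and 4619.9 in A880STM1 and 1489 and 1701 in A880STM1K (log2 -1.70 ± 0.39). ACS1, acetyl-CoA synthetase, gave 8382 and 5604 in A880STM1 and 2193 and 2107 in A880STM1K, a 3.19-fold fall. MDH2 and IDP2, cytosolic enzymes of the same routes, were also lower (log2 -1.89 ± 0.38 and -1.46 ± 0.39), though these calls did not hold under every setting.

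**Figure D2:**
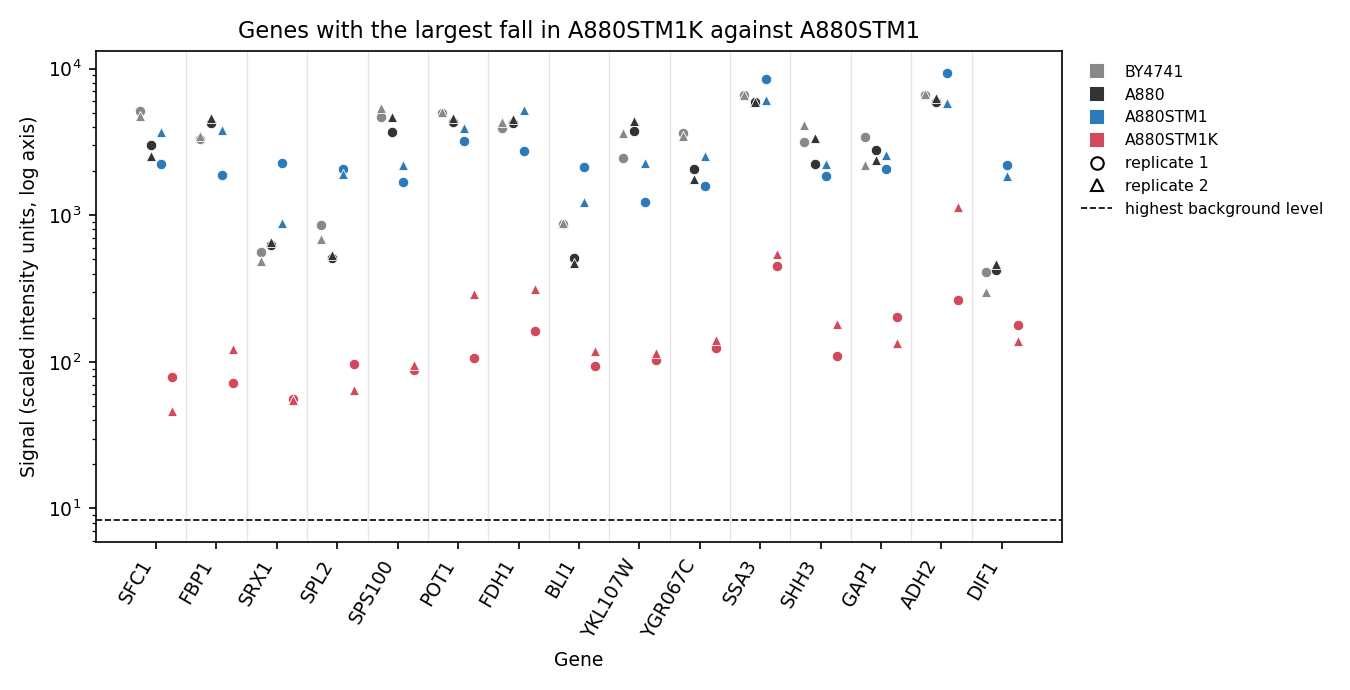
Signal on a log axis for the 15 genes with the largest fall among probe sets above background on all 4 arrays, with 1 point per array, coloured by strain and shaped by replicate number, and a dashed line at the highest background level of the 8 arrays. Only called genes with both A880STM1K points below both A880STM1 points were eligible. In each gene shown, both A880STM1K points also lie below those of BY4741 and A880.

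All 5 genes of the carnitine shuttle, which moves acetyl units between compartments, were lower, 3 of them holding (median -2.46). YAT2, a carnitine acetyltransferase, gave 3243 and 4407 in A880STM1 and 775 and 289.8 in A880STM1K (log2 -2.996 ± 0.38, adjusted p = 7.74e-13), and its relative YAT1 gave 5333 and 4309 in A880STM1 and 799 and 501 in A880STM1K (log2 -2.92 ± 0.38). CRC1, the mitochondrial carnitine carrier, gave 1637 and 2083 in A880STM1 and 402 and 279 in A880STM1K (log2 -2.46 ± 0.41). CAT2 and AGP2 were lower by smaller amounts (log2 -1.63 ± 0.39 and -1.09 ± 0.38), and those calls did not hold.

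Of 36 genes for fatty acid oxidation and peroxisomes, 16 were lower (9 holding) and 1 was higher, with a median of -0.62. The lower calls numbered 9 without the second A880STM1 array and 9 without the first A880STM1K array. The lower ones covered the oxidation cycle from end to end. POX1, acyl-CoA oxidase, gave 1735 and 2855 in A880STM1 and 166 and 261 in A880STM1K (log2 -3.42 ± 0.42), FOX2, the multifunctional enzyme of the next steps, gave 5082 and 4409.8 in A880STM1 and 900.5 and 1408 in A880STM1K (log2 -2.07 ± 0.38), and POT1, the thiolase that closes the cycle, gave 3230.3 and 3903 in A880STM1 and 107 and 292 in A880STM1K (log2 -4.33 ± 0.40, adjusted p = 1.47e-23). CTA1, the peroxisomal catalase, gave 5250.0 and 5297 in A880STM1 and 384 and 716 in A880STM1K, a 10.1-fold fall. The auxiliary enzymes for unsaturated chains SPS19, ECI1 and DCI1 fell too, with log2 differences of -2.87, -2.73 and -2.42. PXA1, a subunit of the peroxisomal fatty acid transporter, fell from 3590.0 and 4176 to 456 and 948 (log2 -2.56 ± 0.38). PEX18 and PEX21 are related import factors that moved in opposite directions. PEX18 gave 1101 and 1439.8 in A880STM1 and 123 and 199 in A880STM1K (log2 -3.01 ± 0.46), and PEX21 gave 260.5 and 381 in A880STM1 and 1414 and 578 in A880STM1K (log2 1.52 ± 0.44), whose call did not hold.

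Genes for alcohols and single-carbon compounds also separated the strains. ADH2, the alcohol dehydrogenase that oxidises ethanol and is repressed by glucose, gave 9319 and 5800.5 in A880STM1 and 262 and 1133 in A880STM1K (log2 -3.75 ± 0.38, adjusted p = 5.75e-20); the A880STM1K arrays lay far apart, and both were below both A880STM1 arrays. ADH5, another alcohol dehydrogenase, rose from 1245 and 923 to 3461 and 4049.6 (log2 1.80 ± 0.38), and PDC5, a pyruvate decarboxylase of fermentation, rose from 205 and 242 to 793 and 1107 (log2 2.07 ± 0.45). Among 17 pyruvate decarboxylase, alcohol and aldehyde dehydrogenase genes, 5 were higher and 4 lower, of which 2 and 1 held; 2 were higher without the second A880STM1 array, and 1 was lower without the first. FDH1, formate dehydrogenase, gave 2759.9 and 5229.5 in A880STM1 and 163 and 314 in A880STM1K (log2 -4.07 ± 0.39). For glycerol itself, 2 of 12 genes were lower and 0 higher, against 10.4% and 11.2% of all tested probe sets. STL1, the glycerol-proton symporter, gave 279 and 647 in A880STM1 and 62.4 and 70.9 in A880STM1K (log2 -2.67 ± 0.54, adjusted p = 1.8e-05), with 127 and 116 in BY4741 and 1538 and 1615 in A880. GUT1, glycerol kinase, gave 2297 and 3569 in A880STM1 and 773 and 1440.4 in A880STM1K (log2 -1.44 ± 0.38), a call that did not hold, and GUT2, the mitochondrial glycerol-3-phosphate dehydrogenase, was not called (log2 -0.53 ± 0.41).

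Among 17 genes for glucose sensing, repression and sugar kinases, 2 were higher and 2 lower, shares near those of all probe sets. MIG2, a repressor of glucose-repressed genes that is itself induced by glucose, gave 56.7 and 44.5 in A880STM1 and 1028 and 551 in A880STM1K (log2 3.91 ± 0.53, adjusted p = 2.15e-11), with 48.7 and 37.5 in BY4741 and 51.3 and 49.99 in A880, so the A880STM1K arrays stood alone. Its relative MIG3 gave 132 and 159 in A880STM1 and 926 and 356 in A880STM1K (log2 1.98 ± 0.50). MIG1, the main repressor of the family, went the other way at 518 and 741 in A880STM1 and 221 and 129 in A880STM1K (log2 -1.88 ± 0.49), as did SNF3, the sensor of low glucose, at 713 and 1436 in A880STM1 and 240.0 and 252 in A880STM1K (log2 -2.04 ± 0.45). Of these 4 calls only that of MIG2 held. HXK2, the hexokinase that takes part in repression, was not called (log2 0.67 ± 0.41).

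Of 15 hexose transporter genes, 4 were higher, none holding, and 1 was lower, and the higher ones numbered 1 without the second A880STM1 array. HXT5, a transporter made in slow growth, gave 5450.3 and 4660.3 in A880STM1 and 1382 and 1535 in A880STM1K (log2 -1.79 ± 0.39), and this call held. HXT3, a transporter of low affinity, gave 2722 and 1091 in A880STM1 and 6323 and 6005 in A880STM1K (log2 1.84 ± 0.40), and HXT4 gave 1506 and 847 in A880STM1 and 3704 and 4494 in A880STM1K (log2 1.85 ± 0.38). HXT1 was at 441 and 173 in A880STM1 and 2103 and 215 in A880STM1K, so the replicates of A880STM1K lay far apart, and its difference had the opposite sign without the first of them. Of 13 glycolytic genes 0 were called by limma at an adjusted p, and 2 (PFK1 and PFK2) had an unadjusted p below 0.05 (median 0.10). CLN3, the G1 cyclin that couples nutrients to the start of the cell cycle, gave 159 and 119 in A880STM1 and 2106 and 1186 in A880STM1K (log2 3.52 ± 0.45, adjusted p = 1.16e-12), an 11.5-fold rise. Of 20 cyclin and G1 regulator genes, 2 were higher and 1 lower, and the CLN3 call was the one that held. These shares did not exceed the 11.2% higher and 10.4% lower among all tested probe sets.

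Calls among nuclear genes for mitochondria divided by function: nearly all those of the respiratory chain were lower in A880STM1K, and all those of the mitochondrial ribosome were higher. Of 41 respiratory chain and ATP synthase genes, 18 were lower (11 holding) and 1 was higher, with a median of -0.94, and the lower calls numbered 11 without the first A880STM1K array. QCR6, a subunit of the cytochrome bc1 complex, gave 7369 and 4897 in A880STM1 and 884 and 1171 in A880STM1K (log2 -2.56 ± 0.39, adjusted p = 2.5e-09). ATP17, a subunit of the membrane part of ATP synthase, gave 6999 and 4231 in A880STM1 and 977 and 1195 in A880STM1K (log2 -2.33 ± 0.39). ATP3, the gamma subunit of the stalk, gave 6689 and 5123 in A880STM1 and 1216 and 1642 in A880STM1K (log2 -2.05 ± 0.39). For these 3 genes the strains lay on opposite sides of the other strains, with A880STM1 above all other arrays and A880STM1K below them. QCR6, for example, was at 2719 and 2632 in BY4741 and 2652 and 2839 in A880. Over the whole list both A880STM1 arrays lay outside the range of the other 6 for 27 of 41 genes, and both A880STM1K arrays for 24. Among all tested probe sets, A880STM1 lay above that range for 4.61% and below for 9.23%. For A880STM1K these shares were 18.6% and 21.1%. The list's median was -1.32 in replicate 1 and -0.42 in replicate 2. Its summed signal was 232040 and 174996 in A880STM1 and 111137 and 133118 in A880STM1K. BY4741 gave 125390 and 125600, and A880 gave 135725 and 140496.

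The respiratory changes were uneven among subunits. Smaller ATP synthase subunits ATP14, ATP15, ATP16, ATP18 and ATP20 fell, with log2 differences of -1.94, -1.74, -1.76, -2.02 and -1.97, and all these calls held. The catalytic subunits ATP1 and ATP2 were not called (log2 0.40 ± 0.42 and -0.17 ± 0.42), nor was COR1, a core subunit of complex III (log2 0.05 ± 0.43). NDE2, an external NADH dehydrogenase, gave 3209.6 and 3700.4 in A880STM1 and 428 and 759.5 in A880STM1K (log2 -2.60 ± 0.38), while NDE1, its paralog, was not called (log2 0.89 ± 0.42). COX5B, the hypoxic form of a cytochrome oxidase subunit, gave 4697 and 3213 in A880STM1 and 607 and 1267 in A880STM1K (log2 -2.15 ± 0.38), against 731 and 559 in BY4741 and 211 and 288 in A880, so it was the A880STM1 arrays that stood apart. CYC1, the main cytochrome c, was the exception in direction at 2254 and 1353 in A880STM1 and 5143 and 6265 in A880STM1K (log2 1.70 ± 0.39, adjusted p = 0.000248), with both strains above the 302 and 241 of BY4741. AAC1, an ADP/ATP carrier, gave 2262 and 2683 in A880STM1 and 659.6 and 538 in A880STM1K (log2 -2.05 ± 0.38). In the TCA cycle 2 of 16 genes were higher and 2 lower, none holding, shares near those of all probe sets. IDH1 and IDH2, the subunits of isocitrate dehydrogenase, were the higher ones, at 2721 and 2546 in A880STM1 and 8638 and 7887 in A880STM1K for IDH1 (log2 1.65 ± 0.41) and 2117 and 2684 in A880STM1 and 7097 and 6406 in A880STM1K for IDH2, a 2.83-fold rise.

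Of 70 mitochondrial ribosomal protein genes, 43 were higher (20 holding) and 0 were lower, with a median of 1.245 (1.11 in replicate 1, 1.35 in replicate 2), and 65 of the 70 differences were above 0. The higher calls numbered 22 without the first A880STM1 array, 24 without the second and 22 without the second A880STM1K array, with medians of 1.08, 1.36 and 1.00. RSM25, a small subunit protein, gave 212 and 314 in A880STM1 and 1604 and 2784 in A880STM1K (log2 3.04 ± 0.41, adjusted p = 1.83e-11). MRP4, also of the small subunit, gave 191 and 290.0 in A880STM1 and 1488 and 2161 in A880STM1K (log2 2.93 ± 0.42). MRPL3, of the large subunit, gave 433 and 629.5 in A880STM1 and 2734 and 3562 in A880STM1K (log2 2.58 ± 0.38). For 48 of the 70 both A880STM1K arrays lay outside the range of the other 6 arrays. Over all tested probe sets they lay above it for 18.6% and below it for 21.1%. For RSM25 and MRP4 the A880STM1 arrays lay below all others at the same time. Large subunit genes MRPL15, MRPL4 and MRPL11 rose by 2.55, 2.46 and 2.51 on the log2 scale.

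Calls in other parts of mitochondrial translation ran the same way. In a list of 39 mitochondrial tRNA synthetase and translation factor genes, assembled after values had been seen, 21 were higher (16 holding) and 0 lower, with a median of 1.33. MSF1, the phenylalanyl-tRNA synthetase, gave 113 and 145 in A880STM1 and 1353 and 2169 in A880STM1K, a 13.4-fold rise (log2 3.74 ± 0.45, adjusted p = 2.88e-14). MTO1, which modifies mitochondrial tRNAs, gave 76.2 and 129 in A880STM1 and 1059 and 1372 in A880STM1K (log2 3.60 ± 0.48). The elongation factor gene MEF1 gave 505 and 825 in A880STM1 and 2677 and 3829 in A880STM1K (log2 2.31 ± 0.38). MRF1, the release factor, rose by 2.38 and RRF1, the recycling factor, by 2.46 on the log2 scale. Of 36 genes for mitochondrial protein import and folding, listed in the same way, 14 were higher (5 holding) and 0 lower (median 0.82), and 6 or 7 were higher with any 1 array left out. MAS2, a subunit of the peptidase that removes targeting sequences, gave 672 and 527 in A880STM1 and 3295 and 3555 in A880STM1K (log2 2.52 ± 0.38), and TIM23, the channel of the inner membrane, gave 418 and 589 in A880STM1 and 1910.3 and 1951 in A880STM1K (log2 1.96 ± 0.39). TOM20, a receptor of the outer membrane, gave 922 and 1018 in A880STM1 and 3229 and 3311 in A880STM1K (log2 1.754 ± 0.38). MAM33, a matrix protein, gave 647 and 964 in A880STM1 and 4889 and 5993 in A880STM1K (log2 2.78 ± 0.38).

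**Figure D3:**
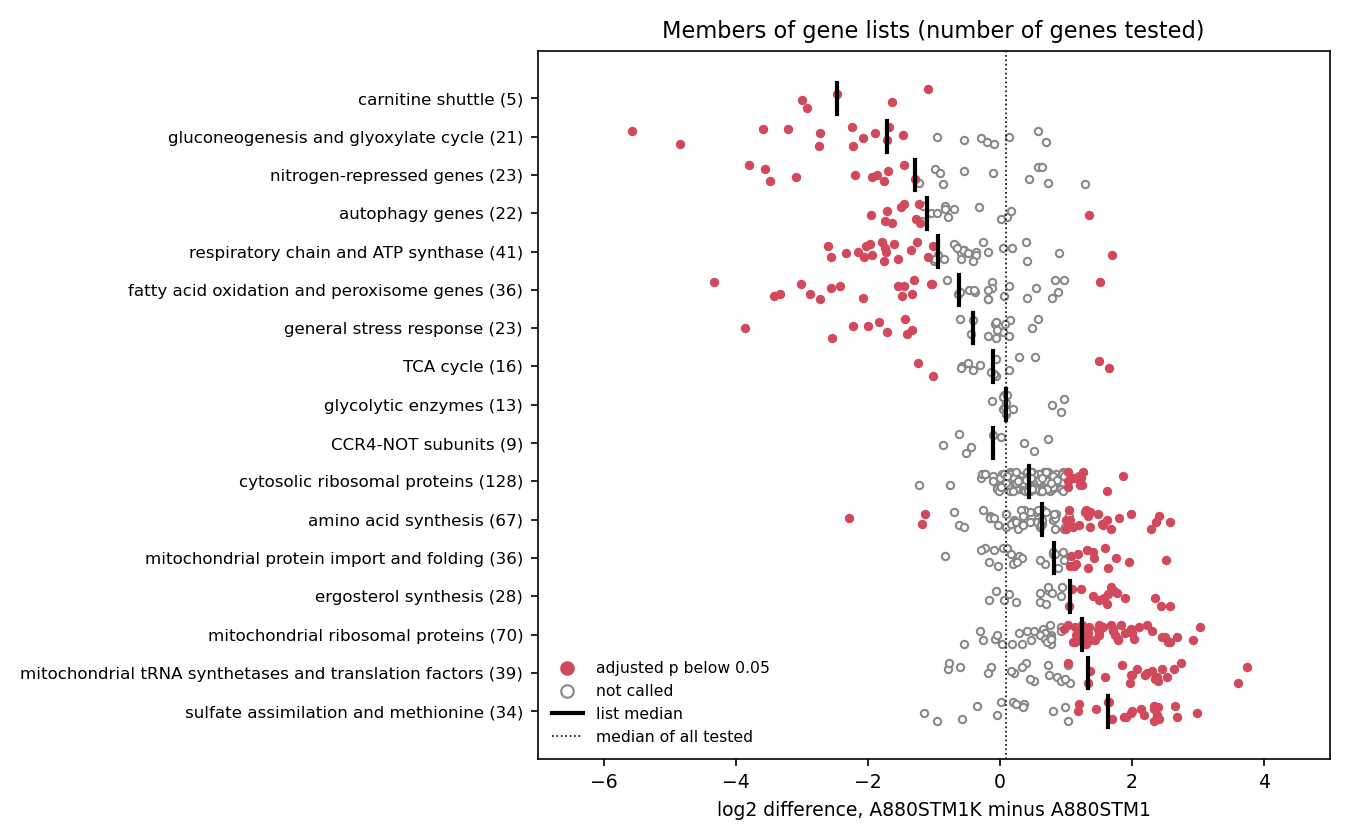
The x axis is the log2 difference of A880STM1K minus A880STM1 for each member of 17 gene lists, with filled points for an adjusted p below 0.05, open points for genes not called, a bar at the list median and a dotted line at the median of all tested probe sets (0.10). ASP3-1, below background in A880STM1K, lies off the axis in the nitrogen list.

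Few calls in cytosolic translation held. Of 128 cytosolic ribosomal protein genes, 12 were higher (0 holding) and 0 lower, and the median was 0.44. Their share of higher calls lies near the 11.2% of all tested probe sets, and the calls numbered 0 without the second A880STM1 array and 2 without the first A880STM1K array. RPL13A was the member with the smallest p, at 972 and 623 in A880STM1 and 3934 and 2043 in A880STM1K (log2 1.87 ± 0.38). Of 43 ribosome biogenesis genes 4 were higher, none holding, and the list's median was 1.03 in replicate 1 and -0.05 in replicate 2; 15 were higher without the second A880STM1K array, and 0 without the first. NOP58, a core protein of box C/D ribonucleoproteins, gave 1151 and 516 in A880STM1 and 4499 and 1430.1 in A880STM1K (log2 1.72 ± 0.38). Among 35 translation factor genes 9 were higher and 1 lower, of which 2 and 1 held, and 2 were higher without the second A880STM1 array or the first A880STM1K array. RPG1 and NIP1, subunits of initiation factor eIF3, gave 723 and 598 in A880STM1 and 2793 and 2444 in A880STM1K for RPG1 (log2 1.99 ± 0.38) and 797 and 638 in A880STM1 and 3548 and 1918 in A880STM1K for NIP1 (log2 1.87 ± 0.38). HEF3, an alternative form of elongation factor 3, fell, with 4730.5 and 4649 in A880STM1 and 509 and 588 in A880STM1K (log2 -3.10 ± 0.38, adjusted p = 7.55e-14).

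Genes tied to the labelled alterations were read against the 11.2% of all tested probe sets called higher and the 10.4% called lower. Of 9 CCR4-NOT subunits 0 were called by limma at an adjusted p, and 1 (CDC39) had an unadjusted p below 0.05 (median -0.10). CCR4, the other deadenylase of the complex, had 961 and 1153 in A880STM1 and 1751 and 1746 in A880STM1K (log2 0.73 ± 0.38, limma adjusted p = 0.165). Both A880STM1K arrays were above both A880STM1 arrays, as for 32.4% of all tested probe sets. Of 14 genes in a list of STM1, RGG-motif proteins and arginine methyltransferases, 2 were higher, neither holding, and 0 were lower, a share of higher calls near that of all probe sets. HMT1, the main arginine methyltransferase of yeast, was not called (log2 -0.58 ± 0.44, adjusted p = 0.375). HRP1, a 3′ end processing factor, gave 945 and 1348 in A880STM1 and 2763 and 4218 in A880STM1K (log2 1.60 ± 0.38), and GAR1, of box H/ACA particles, gave 1172 and 752 in A880STM1 and 4757 and 1370.5 in A880STM1K (log2 1.44 ± 0.38). Of 6 PUF family genes, whose proteins bind messenger RNA 3′ ends, MPT5 was higher (log2 1.43 ± 0.41) and PUF2 lower (log2 -1.27 ± 0.49), and neither call held. Among 24 messenger RNA decay genes 1 was higher and 1 lower. LSM5, a subunit of the ring that promotes decapping, gave 779.9 and 899 in A880STM1 and 199 and 246 in A880STM1K (log2 -1.92 ± 0.46, adjusted p = 0.000441), and its call held.

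Many sterol synthesis genes were higher in A880STM1K. Of 28 ergosterol synthesis genes, 15 were higher (5 holding) and 0 lower, with a median of 1.07, and 9 were higher without the first A880STM1 array. MVD1, mevalonate pyrophosphate decarboxylase of the early pathway, gave 511 and 486 in A880STM1 and 2488 and 2984 in A880STM1K (log2 2.45 ± 0.39, adjusted p = 1.34e-08). ERG1, squalene epoxidase, gave 905 and 1393 in A880STM1 and 4117 and 3587 in A880STM1K (log2 1.77 ± 0.38). In the late pathway, ERG3, a sterol desaturase, gave 339.6 and 555 in A880STM1 and 3000.0 and 2230.0 in A880STM1K (log2 2.58 ± 0.39). ERG4, the last reductase, gave 309.9 and 362 in A880STM1 and 1929 and 1508 in A880STM1K (log2 2.35 ± 0.41). In each of these genes the strains did not overlap, and both A880STM1K arrays lay above every other array. NCP1, the reductase that supplies electrons to the P450 steps, rose by 1.90 on the log2 scale.

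RSB1, a gene for lipid export, had the largest rise among genes above background on all 4 arrays. Of 19 drug and lipid exporter genes and regulators, a list assembled after values had been seen, 7 were higher (6 holding) and 1 was lower. RSB1 protects cells from sphingoid bases and gave 91.2 and 59.2 in A880STM1 and 1464 and 1387 in A880STM1K, a 19.4-fold rise (log2 4.28 ± 0.49, adjusted p = 6.43e-16). PDR5, the main multidrug transporter of the ABC family, gave 385 and 576 in A880STM1 and 4689 and 4157 in A880STM1K (log2 3.23 ± 0.38, adjusted p = 6.1e-15), and PDR15, its close relative, gave 646 and 1073 in A880STM1 and 4377 and 4415 in A880STM1K (log2 2.40 ± 0.38). Both A880STM1K arrays of these 3 genes lay above all other arrays. PDR3, a transcription factor of drug exporters, gave 149 and 240.0 in A880STM1 and 723 and 731 in A880STM1K (log2 1.94 ± 0.48). PDR10, another ABC transporter gene, went the other way at 1613 and 2312 in A880STM1 and 469.7 and 469.8 in A880STM1K (log2 -2.04 ± 0.39). QDR2 gave 34.0 and 42.8 in A880STM1 and 317 and 254 in A880STM1K (log2 2.89 ± 0.56), and its A880STM1K arrays overlapped the 257 and 200.3 of BY4741.

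**Figure D4:**
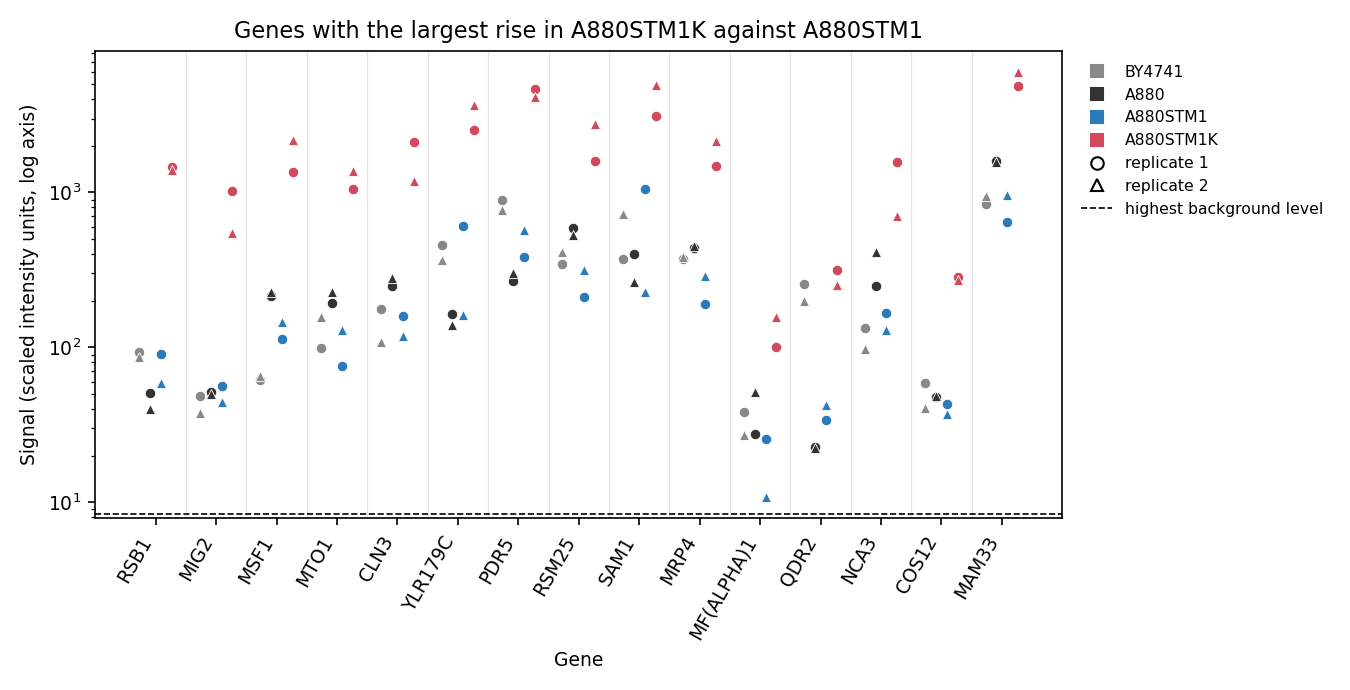
Signal on a log axis for the 15 genes with the largest rise among probe sets above background on all 4 arrays, 1 point per array, coloured by strain and shaped by replicate number, with a dashed line at the highest background level of the 8 arrays. Only called genes with both A880STM1K points above both A880STM1 points were eligible. In QDR2 the A880STM1K points lie close to BY4741.

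Some genes of amino acid pathways rose. Of 34 sulfate assimilation and methionine genes, 21 were higher (2 holding) and 0 lower, with a median of 1.65 that was 0.59 in replicate 1 and 2.57 in replicate 2. Without the second A880STM1K array 7 were higher and 1 lower, with a median of 0.77, and without the second A880STM1 array 9 were higher. MET3, ATP sulfurylase, the first enzyme of the pathway, gave 154 and 192 in A880STM1 and 227 and 3605 in A880STM1K (log2 2.39 ± 0.47), and MHT1, a methyltransferase that makes methionine, gave 139 and 140.3 in A880STM1 and 186 and 2660.3 in A880STM1K (log2 2.34 ± 0.49). In both, the first A880STM1K array lay close to the A880STM1 arrays and the second far above them, and neither call held. The calls that held were those of SAM1 and MET13. SAM1, S-adenosylmethionine synthetase, gave 1056 and 229 in A880STM1 and 3119 and 4926 in A880STM1K (log2 2.995 ± 0.38, adjusted p = 7.31e-13), and YLR179C, beside it on chromosome XII, gave 609 and 162 in A880STM1 and 2522 and 3645 in A880STM1K (log2 3.27 ± 0.39). MET13, methylenetetrahydrofolate reductase, gave 696 and 708 in A880STM1 and 3518 and 4002 in A880STM1K (log2 2.42 ± 0.38).

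In the one-carbon list, assembled after values had been seen, 6 of 15 genes were higher (5 holding) and 0 lower (median 0.98). MTD1, a folate dehydrogenase, gave 649.9 and 439 in A880STM1 and 2935 and 4326 in A880STM1K (log2 2.74 ± 0.38, adjusted p = 8.95e-11). GCV1 and GCV2, subunits of the glycine cleavage complex, rose by 2.69 and 2.67 on the log2 scale, and SHM2, cytosolic serine hydroxymethyltransferase, by 1.996. For GCV1 the A880STM1 arrays, at 457 and 401, lay below all others, and A880STM1K, at 1663 and 4584, lay within the range of BY4741 and A880 in replicate 1. Of 67 genes for other amino acids 23 were higher (5 holding) and 3 lower (1 holding), and the higher ones numbered 9 without the second A880STM1 array and 7 without the first A880STM1K array. BAT1, the mitochondrial branched-chain transaminase, gave 1452 and 572 in A880STM1 and 6165 and 4866 in A880STM1K (log2 2.59 ± 0.38), ILV3, a dehydratase of the same pathway, gave 1081 and 762 in A880STM1 and 5282 and 4118 in A880STM1K (log2 2.36 ± 0.38), and SER3, the first enzyme of serine synthesis, gave 1374 and 823 in A880STM1 and 4941 and 6449 in A880STM1K (log2 2.41 ± 0.39). GDH3, a glutamate dehydrogenase expressed without glucose, fell, with 3696 and 3618 in A880STM1 and 698 and 799.7 in A880STM1K (log2 -2.29 ± 0.38).

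Genes that yeast keeps off when good nitrogen sources are present were lower: 12 of 23 nitrogen-repressed genes fell (8 holding), 0 rose, and the median was -1.28. GAP1, the general amino acid permease, gave 2059 and 2568 in A880STM1 and 203 and 134 in A880STM1K (log2 -3.80 ± 0.43, adjusted p = 1.56e-16). PUT4, the proline permease, gave 1924 and 3188 in A880STM1 and 169 and 293 in A880STM1K (log2 -3.48 ± 0.41). The ammonium permease genes MEP1 and MEP2 gave 1245 and 958 in A880STM1 and 149.99 and 110.0 in A880STM1K for MEP1 (log2 -3.09 ± 0.47) and 2482 and 1577 in A880STM1 and 179 and 159.7 in A880STM1K for MEP2 (log2 -3.55 ± 0.43). In these 4 genes both A880STM1K arrays lay below all 6 others.

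The widest difference of the comparison was at the ASP3 locus on chromosome XII, where near-identical gene copies share probe sets. ASP3-1 (YLR155C), a secreted asparaginase, gave 4578 and 2942 in A880STM1 and 0.63 and 5.81 in A880STM1K, so A880STM1K was below background on both arrays and at least 458-fold lower, measured against the background level (adjusted p = 1.08e-76). BY4741 was at 3856 and 3544 and A880 at 3512 and 3788. YLR156W, a neighbouring gene of unnamed function, gave 302 and 487 in A880STM1 and 0.434 and 0.175 in A880STM1K, at least 47.9-fold lower, a call lost without the second A880STM1 array. YLR157W-E, also there, gave 351 and 490.4 in A880STM1 and 14.5 and 7.37 in A880STM1K (log2 -5.33 ± 0.57). Which gene copies each strain carries was not tested.

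Metal and phosphate genes fell in part, with list medians of -0.19 for phosphate, -0.55 for copper and -0.13 for iron genes. Calls over all tested probe sets were 11.2% higher and 10.4% lower. The iron median was 0.36 in replicate 1 and -0.69 in replicate 2. Without the second A880STM1 array the phosphate and iron medians were 0.03 and 0.06. Of 23 phosphate genes 7 were lower (4 holding; 4 were lower without the second A880STM1 array) and 0 higher. SPL2, which restrains low-affinity phosphate uptake, gave 2075 and 1917 in A880STM1 and 96.5 and 64.7 in A880STM1K (log2 -4.66 ± 0.47, adjusted p = 2.33e-20), with 862 and 692 in BY4741, so A880STM1 lay above and A880STM1K below the other strains. PHO89, a sodium-phosphate transporter, gave 3181 and 2948 in A880STM1 and 688 and 439.8 in A880STM1K (log2 -2.48 ± 0.38). Of 10 copper genes 4 were lower (3 holding) and 1 higher. CTR3, a copper transporter, gave 1026 and 1941 in A880STM1 and 143 and 108 in A880STM1K (log2 -3.51 ± 0.46), with 1189 and 1502 in A880 and 77.5 and 52.3 in BY4741. MAC1, the activator of copper uptake, gave 1067 and 847 in A880STM1 and 321 and 261 in A880STM1K (log2 -1.71 ± 0.44). Of 30 iron genes 6 were lower (2 holding) and 2 higher, but 3 were lower without either A880STM1 array or without the first A880STM1K array. MRS4, a mitochondrial iron carrier, gave 4074 and 1956 in A880STM1 and 686 and 571 in A880STM1K (log2 -2.17 ± 0.38). Here the A880STM1 arrays were the ones above all others.

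Most calls among stress genes were lower, but the list medians fell mainly in replicate 1. Among all tested probe sets 10.4% were called lower and 11.2% higher. In replicate 1 and replicate 2 the list medians were -1.12 and 0.10 for general stress response genes and -0.58 and -0.09 for cytosolic chaperone genes. For oxidative defence genes they were -0.64 and -0.06, and for proteasome genes -0.58 and 0.02. Of 23 general stress response genes 9 were lower (3 holding; 5 without the first A880STM1K array) and 0 higher, and of 27 cytosolic chaperone genes 5 were lower (3 holding; 3 were lower without the first array of either strain) and 1 higher. SSA3, an Hsp70 made outside rapid growth, gave 8459.9 and 6091 in A880STM1 and 452 and 545 in A880STM1K (log2 -3.85 ± 0.38, adjusted p = 4.5e-21), and SSA4, a heat-induced Hsp70, gave 9559.5 and 5937 in A880STM1 and 2078 and 1962 in A880STM1K (log2 -1.90 ± 0.40). The general stress and chaperone lists overlap, and SSA3 is counted in both. HSP30, a plasma membrane stress protein, gave 8823 and 5474 in A880STM1 and 1818 and 1671 in A880STM1K (log2 -1.995 ± 0.40), with 1883 and 1471 in BY4741, so A880STM1 was high and the A880STM1K arrays lay within the range of the wild type. SRX1, the sulfiredoxin that repairs peroxiredoxins, gave 2283 and 890.0 in A880STM1 and 56.1 and 54.8 in A880STM1K (log2 -4.68 ± 0.50, adjusted p = 5.07e-18). Among 29 oxidative defence genes 6 were lower (2 holding; 3 were lower without the first array of either strain) and 2 higher. OYE3, a NADPH oxidoreductase, gave 2039 and 932 in A880STM1 and 106 and 309 in A880STM1K (log2 -2.93 ± 0.45). Of 33 proteasome genes 5 were lower, none holding, and 0 higher, and 0 were lower without either A880STM1 array or without the first A880STM1K array.

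Of 27 meiosis and sporulation genes 4 were lower (1 holding) and 0 higher, a share near the 10.4% of all tested probe sets, and 2 were lower without the second A880STM1 array or the first A880STM1K array. IME1, the activator of meiotic entry, gave 1294 and 1526 in A880STM1 and 201 and 132 in A880STM1K (log2 -3.11 ± 0.45, adjusted p = 4.9e-10), with 2094 and 2353 in A880 and 179 and 212 in BY4741, so the A880STM1K arrays overlapped the wild type. Late sporulation gene SPS100 gave 1683 and 2215 in A880STM1 and 87.4 and 95.7 in A880STM1K (log2 -4.40 ± 0.46). DIF1, which sends a ribonucleotide reductase subunit to the nucleus, gave 2214 and 1854 in A880STM1 and 178 and 139 in A880STM1K (log2 -3.69 ± 0.43), with 409 and 301 in BY4741, and here A880STM1 lay above all other arrays. Of 23 genes induced by mating pheromone 1 was lower. It was PRM4, at 2204 and 3211 in A880STM1 and 596 and 345 in A880STM1K (log2 -2.55 ± 0.39).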

How the data were processed

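RNA from 8 cultures was hybridised to Affymetrix yeast arrays, of which the 4 of A880STM1 and A880STM1K are compared. The authors deposited 1 linear intensity per probe set and array, computed with MAS5 per the submitters' processing notes; its version is not given in the sources used here. By the values, the trimmed mean of each array, 2% left out at each end, was about 500.2, so arrays had been scaled to a common mean. Of 10928 probe sets, 5498 had 1 S. cerevisiae gene, 1 several, 1746 belonged to another species, 213 were controls and 3470 were unnamed. Assembly R64's gene table gave 12 newer symbols and the chromosomes. 128 tested probe sets are shared by near-identical genes.

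Log2 of the signal was fitted as group means over the 4 arrays in limma 3.58.1 (R 4.3.3), with eBayes moderation that follows intensity (2 residual degrees of freedom, and an infinite prior), adjusted by Benjamini-Hochberg over 5493 probe sets. The 2 arrays per strain limit the precision. A fold against a strain below background used the background level. The 44 gene lists, 6 lists added later and the members were chosen with earlier results of these data known, and lists are given by counts and medians, with 1 probe set per gene. Named are STM1, POP2, marker and cell type genes, up to 15 rises and 15 falls by size, genes above 5 times background in 1 strain only, up to 6 called genes per list by p, and uncalled members that complete a step. The rises and falls were taken from called genes above background on all 4 arrays whose strains did not overlap. Outside that rule, ATP14, ATP15, ATP16, ATP20, DCI1, FOX2, IDP2, JEN1, MDH2, MET3, MHT1, MLS1, MRPL11, PCK1, PDR3, PEX18, PEX21, RRF1 and YLR157W-E were chosen after their values were seen. Labels do not say that replicate numbers mark a shared batch, so the fit had no block. Alternatives were 2 other scalings, a pseudocount of 16, a floor at background, other filters, all probe sets, no intensity trend, all 8 arrays, the replicate number as a block, a stricter threshold of 0.01 and a 2-fold minimum, and each array left out. A robust fit, weights per strain and no sharing of spread were chosen after seeing the data. A simulation with known changes tested the code. Promoter and protein sequences were not analysed here.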

Additional observations from a re-analysis of the deposited data

How the results depend on the processing

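The 1189 calls (615 higher, 574 lower) became 1923 (982 and 941) with all 8 arrays, 713 (358 and 355) at an adjusted p below 0.01, 793 (359 and 434) with weights per strain, and 0 with no sharing of spread between genes, where 933 had an unadjusted p below 0.05. Without 1 array the calls ranged from 533 to 814, the higher ones from 269 to 417 and the lower ones from 253 to 397. With the replicate number as a block there were 1389 (748 and 641), and the deviations of same-numbered arrays correlated at 0.254, a pairing the labels do not give. The share of calls that were higher was 51.7%, and 45.7% after quantile normalization. STM1 ranged from -0.17 to 0.74 on the log2 scale with 1 array left out, and POP2 from -0.44 to 0.23, with neither called. With 1 array left out, UTP5 ranged from -0.086 to 2.37 and HXT1 from -0.36 to 2.93, each negative only without the first A880STM1K array, the higher of that pair in both genes. Of 220 called genes followed through 17 alternatives, 117 kept their call under all that share spread. The 220 were picked under the naming rules above, largely by size or p. Over all 1189 calls, 311 held. With 2 arrays per strain it is unknown which array of a discordant pair is unusual.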

Other observations

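Genes of autophagy, the delivery of cell contents to the vacuole, were lower in part: 9 of 22 (1 holding) fell, 1 rose, and the median log2 difference was -1.10, in a list assembled after values had been seen. The number that fell was 1 without the first A880STM1K array and 4 without the second A880STM1 array. ATG33, needed for the removal of mitochondria, gave 1688 and 2139 in A880STM1 and 363 and 667 in A880STM1K (log2 -1.95 ± 0.39, limma adjusted p = 1.8e-05). ATG8, whose protein coats the growing autophagosome, gave 6992 and 4688 in A880STM1 and 2293 and 2489 in A880STM1K (log2 -1.26 ± 0.40), and ATG13, a subunit of the initiating kinase complex, was the 1 that was higher, at 243 and 401 in A880STM1 and 902 and 698 in A880STM1K (log2 1.35 ± 0.45); neither of these calls held under every setting. Of 20 trehalose and glycogen genes 3 were higher (0 holding) and 3 lower (2 holding), shares near the 11.2% and 10.4% of all tested probe sets, and 0 were higher without the first A880STM1 array or the second A880STM1K array. ATH1, an acid trehalase, gave 1824 and 2885 in A880STM1 and 335 and 673 in A880STM1K (log2 -2.27 ± 0.39), and GLG2, which primes glycogen, gave 933 and 1539.5 in A880STM1 and 329.6 and 269 in A880STM1K (log2 -2.01 ± 0.43).

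Of 13 pentose phosphate pathway genes, also listed after values had been seen, 3 were higher (2 holding) and 2 lower (0 holding). Their median was -0.06, and paralogs among them differed in direction. Shares over all tested probe sets were 11.2% higher and 10.4% lower. GND1, the main 6-phosphogluconate dehydrogenase, gave 811 and 574 in A880STM1 and 4285 and 4764 in A880STM1K (log2 2.73 ± 0.38, adjusted p = 9.26e-11), while GND2, the minor form, gave 1267 and 2342 in A880STM1 and 312 and 1145 in A880STM1K (log2 -1.53 ± 0.39). TKL1, the main transketolase, gave 956 and 503 in A880STM1 and 4301 and 1908 in A880STM1K (log2 2.05 ± 0.38), and TKL2, the minor form, gave 2440.4 and 3487 in A880STM1 and 1093 and 1101 in A880STM1K (log2 -1.41 ± 0.38). Of these calls that of GND1 held under every setting. Among 29 cell wall genes 7 were higher (2 holding) and 0 lower, and 2 were higher without the second A880STM1 array or the first A880STM1K array. PIR3, a wall protein, gave 1138 and 1017 in A880STM1 and 3844 and 5490.3 in A880STM1K (log2 2.09 ± 0.38), and GAS1, a glucan remodelling enzyme, gave 1354 and 629.6 in A880STM1 and 4654 and 3008 in A880STM1K (log2 2.02 ± 0.38).

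By chromosome, the median log2 difference lay between -0.03 (XVI) and 0.24 (VIII). Of 3470 unnamed probe sets, 281 exceeded background on all 4 arrays, and 12 of these were higher and 26 lower in a fit over all probe sets. In that fit 412 of all 10928 probe sets were higher and 419 lower.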
